A study of Mus musculus with 3 samples.

Results

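The interleukin-6 (IL-6), interleukin-10 (IL-10) and STAT3 signaling genes were followed through single cells of a mouse glioblastoma model. The 10 genes, out of 50262 rows of the deposited table, were chosen by name: the ligands Il6, Lif, Osm and Il10, the receptor chains Il6ra, Il6st, Osmr and Il10ra, the transcription factor Stat3 and the feedback inhibitor Socs3. In this model a Cre lentivirus injected into the brain of adult mice switches on human EGFR and a luciferase reporter in animals that lack Cdkn2a throughout, so every tumor shares these alleles, and normal brain was not analysed here. The mice were of both sexes on a mixed background of SJL, Balb/cJ, 129S4, FVBN/J and C57Bl/6J. Tumors were taken at a stage the deposited annotation calls early, medium or large (called late here), with no further treatment, and viable cells were sorted by CD45, the surface marker of leukocytes, into CD45+ and CD45- fractions before droplet sequencing with unique molecular identifiers (UMIs). Per the study's methods an early sample was a pool of a pair of mice and a late sample came from a lone tumor, and whether the medium sample was a pool is not given in the sources used here. Ages at harvest were not used here. The libraries mark 1 tumor sample at each stage, so stages were described without a test, and the sorts were compared as 3 pairs.

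IL-6, LIF and oncostatin M (Osm) are cytokines that signal through receptors sharing the gp130 chain, encoded by Il6st, which pairs with a chain of its own for each ligand (Il6ra for IL-6, Osmr for oncostatin M). IL-10 is an anti-inflammatory cytokine and binds a receptor whose ligand-specific chain is Il10ra. These receptors activate JAK kinases, which phosphorylate STAT3, and STAT3 induces Socs3, whose product binds gp130 receptors and JAKs and ends the signal. In glioma the pathway is known for signaling between myeloid cells and tumor cells, and IL-6 and STAT3 are known drivers of the reactive state of astrocytes and microglia.

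The cells used were 17781 of 20811 deposited, with 51168586 UMIs in all. The 6 sums of cells by tumor sample and sort held 1603 to 5091 cells and 5381839 to 10808099 UMIs, and levels are given in CPM, the UMIs of a gene per 1000000 UMIs of a sum. Libraries held 17 to 1751 cells. Cell barcodes were not unique to libraries: 2114 cells (11.9%) had a barcode that also occurred in another library of the same tumor sample and sort, at 61.6 shared barcodes per 1000000 pairs of cells, against 7.71 between sorts of a tumor sample and 7.47 between tumor samples. Results were therefore also computed with these barcodes counted once, which among the 10 genes changed the call of Socs3, given with its result, and took the lower calls among the IL-6 family ligands described below from 2 to 1. The sort held up on the markers: leukocyte-like cells made up 93.4% of the CD45+ cells in the early tumor sample, 88.8% in the medium one and 86.8% in the late one, whereas the CD45- cells held 8.29%, 6.49% and 1.19%, in that order. Human EGFR in the CD45- sums was at 7.28 CPM at the early stage, with 706 CPM in the medium tumor sample and 1220 CPM in the late one, so the transcript of the tumor allele was rare in the early tumor sample. The CD45+ sums also held human EGFR, at 1.85, 271 and 84.7 CPM. Xist stood at 302 and 139 CPM in the early CD45+ and CD45- sums and at no more than 2.83 in the others, so sex and stage cannot be told apart.

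The STAT binding motif was looked for in promoter windows of the pathway genes, since Socs3 and the genes of the STAT3 target list below are known targets of STAT3. RefSeq windows (GRCm38.p6, 250 bases before to 50 after a gene's start) were found for 7 of the 10 genes, with none in the table for the rest. The motif TTCNNNGAA, which reads the same on both strands, occurred in 1 of the 7 (Socs3, 154 bases before the start) and in 2726 of all 32851 windows (8.3%). Of the 16 STAT3 target genes with a window out of 19, 1 held it (Bcl6, which encodes a transcriptional repressor of germinal center B cells). The Socs3 stretch shown is chr11:117969452-117969616, minus strand, which lies inside the annotated span of the gene and stops before an annotated exon. The first Bcl6 stretch is chr16:23981284-23981533, minus strand, inside an intron of the annotated transcript, and the second is chr16:23988853-23989102, minus strand, just before its first exon. The sequences run 5′ to 3′ with the motif in capitals.
Socs3: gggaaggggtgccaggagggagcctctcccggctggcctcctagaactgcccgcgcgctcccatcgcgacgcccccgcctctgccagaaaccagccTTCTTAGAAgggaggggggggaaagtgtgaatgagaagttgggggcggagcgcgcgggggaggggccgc
Bcl6, first window: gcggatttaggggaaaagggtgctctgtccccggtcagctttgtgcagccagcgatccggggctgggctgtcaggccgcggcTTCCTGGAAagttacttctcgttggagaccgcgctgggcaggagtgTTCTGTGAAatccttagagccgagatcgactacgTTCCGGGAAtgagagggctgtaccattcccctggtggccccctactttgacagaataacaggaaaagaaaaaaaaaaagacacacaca
Bcl6, second window: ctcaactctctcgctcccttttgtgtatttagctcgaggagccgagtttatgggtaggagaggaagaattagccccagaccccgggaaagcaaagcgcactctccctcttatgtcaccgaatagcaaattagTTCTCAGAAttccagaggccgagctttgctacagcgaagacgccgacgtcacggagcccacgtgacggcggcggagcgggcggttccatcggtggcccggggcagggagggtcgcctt
The motif 154 bases before the Socs3 start is TTCTTAGAA, and the Bcl6 windows held TTCCTGGAA, TTCTGTGAA and TTCCGGGAA in the first and TTCTCAGAA in the second. A match of letters is a description of these windows, and a window without it says nothing of the factor.

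The first question was which sort carries the transcripts of the pathway. The ligands and the ligand-specific IL-6 and IL-10 receptor chains were more abundant in CD45+ cells, whereas Osmr was more abundant in CD45- cells, and Il6st and Socs3 did not pass the test. Of the 10 genes, 7 were higher in CD45+ cells and 1 was lower (edgeR quasi-likelihood test on the 3 pairs, Benjamini-Hochberg adjusted over 18433 genes, threshold 0.05). Over all genes tested, 20.4% were called higher and 25.7% lower, 46.1% in either direction, so a call of a sort difference was common in these data. In sums of mixed cells, fewer cells of a type and less RNA per cell cannot be told apart.

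**Figure D1:**
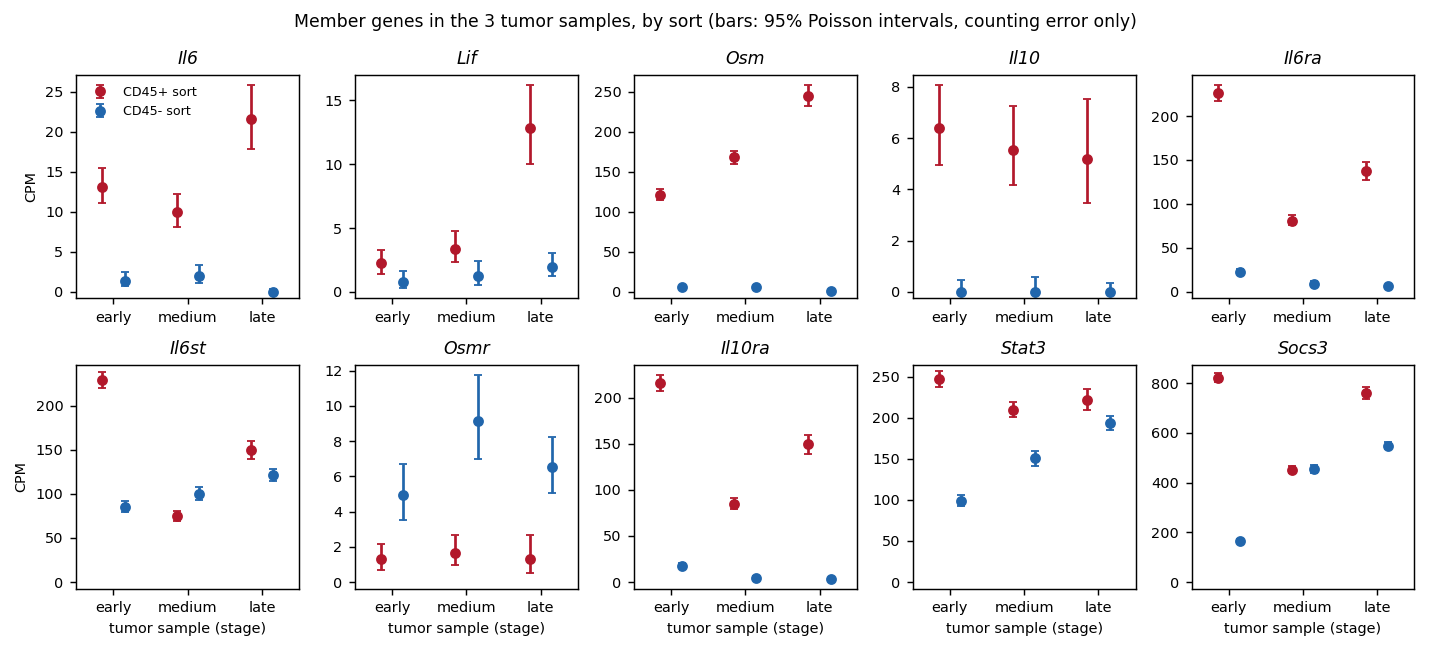
CPM of the 10 genes (y axis, from 0, 1 panel a gene) in the early, medium and late tumor samples (x axis), with red points for the CD45+ sort, blue points for the CD45- sort and bars for 95% Poisson intervals. The sorts do not overlap for 8 genes, with Osmr the gene that is higher in CD45- cells, and they overlap for Il6st and Socs3, where the medium tumor sample has the CD45+ point at or under the CD45- point.

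Osm, an inflammatory cytokine of myeloid cells, had 4351 UMIs in 1756 cells. From the early to the late tumor sample it stood at 121, 168 and 245 CPM in the CD45+ sums and at 5.43, 5.49 and 0.47 in the CD45- sums, the order kept for the values below. All 3 CD45+ values lay above all 3 CD45- values, with a log2 fold change of 6.07 ± 0.81 (SE derived from the test statistic, n = 3 pairs, edgeR adjusted p = 0.0012). Il6 stood at 13.1, 9.97 and 21.6 CPM in CD45+ and at 1.36, 1.98 and 0 in CD45- cells. The sorts again did not overlap, and the log2 fold change was 4.22 ± 0.88 (edgeR adjusted p = 0.0078). Single tumor samples and runs moved these sizes: Osm stood at 5.08 without the late and 6.93 without the early tumor sample, and Il6 at 3.16 without the late one, 5.15 without the medium one and 5.48 without the libraries of run 3. With only leukocyte-like CD45+ and other named CD45- cells, Osm stood at 10.19 and Il6 at 5.07. In the late pair, with no Il6 UMI among CD45- cells, the CD45+ level was 76.1 times a floor of 3 UMIs. This takes the CD45+ level as measured, which by run was 6.12, 32.1 and 13.9 CPM. When every gene with at least 1 UMI was tested, Osm and Il6 kept their direction without passing the threshold (edgeR adjusted p = 0.070 for Osm and edgeR adjusted p = 0.087 for Il6).

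Lif, which acts through gp130 and the LIF receptor and is known for roles in stem cell renewal, was rare, with 161 UMIs in 91 cells. Its levels were 2.22, 3.39 and 12.8 CPM in CD45+ and 0.74, 1.22 and 1.98 in CD45- cells. The lowest CD45+ value lay just above the highest CD45- value, and within each tumor sample CD45+ was 2.78 to 6.47 times as high (log2 fold change 2.38 ± 0.43, edgeR adjusted p = 0.0034). Il10 was seen in 57 cells with 151 UMIs, all of them CD45+, at 6.38, 5.55 and 5.20 CPM. The late value differed by run, at 0, 2.08 and 8.66 CPM in runs 1, 2 and 3. None of the 6596 CD45- cells held an Il10 UMI, which allows a share of cells with a UMI, not of cells expressing the gene, of up to 0.0455%. Over the 3 tumor samples the CD45+ level, taken as measured, was 49.0 times a floor of 3 UMIs over the group. The sort difference passed the test (edgeR adjusted p = 0.00078). Without the libraries of run 3, Il10 was too rare to be tested.

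The receptor chains split by sort. Il6ra stood at 226, 81.1 and 137 CPM in CD45+ and at 23.0, 9.45 and 6.23 in CD45- cells, with no overlap (log2 fold change 3.97 ± 0.32, edgeR adjusted p = 0.00016). Il10ra had a similar contrast, at 216, 85.0 and 149 in CD45+ and 17.9, 4.42 and 3.12 in CD45- cells (4.79 ± 0.43, edgeR adjusted p = 0.00027). With only leukocyte-like CD45+ and other named CD45- cells the log2 fold changes were 5.10 for Il6ra and 10.38 for Il10ra. For both receptors the early tumor sample was highest and the medium lowest among the CD45+ sums. Osmr went the other way, at 1.30, 1.64 and 1.30 CPM in CD45+ and 4.94, 9.15 and 6.52 in CD45- cells. It was lower in CD45+ cells in 3 of 3 pairs and fell by 1.87 ± 0.35 on the log2 scale (edgeR adjusted p = 0.0042), on 206 UMIs in all. Il6st, the shared gp130 chain, stood at 229, 74.7 and 149 in CD45+ and 85.3, 100.0 and 121 in CD45- cells. The sorts overlapped, CD45+ was higher in 2 of 3 pairs, and the log2 fold change of 0.80 ± 0.34 did not pass (edgeR adjusted p = 0.095). Without the medium tumor sample it was 1.18 (edgeR adjusted p = 0.037), and with only leukocyte-like CD45+ and other named CD45- cells 1.17 (edgeR adjusted p = 0.042). Without the early tumor sample it was 0.39 (edgeR adjusted p = 0.30), and with scaling to total UMIs alone 0.43 (edgeR adjusted p = 0.35). The setting with other named CD45- cells also left out the unnamed cells, which held 783 of the 2632 CD45- Il6st UMIs.

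Stat3 was spread more evenly over the sorts. It stood at 247, 209 and 222 CPM in CD45+ and at 99.1, 150.3 and 193 in CD45- cells. Each CD45+ value lay above each CD45- value, by 2.49 times in the early pair, 1.39 times in the medium one and 1.15 times in the late one, and the log2 fold change was 1.03 ± 0.27 (edgeR adjusted p = 0.017). This call was lost without the early tumor sample (0.79, edgeR adjusted p = 0.058), without the medium one (1.08, edgeR adjusted p = 0.055) and with scaling to total UMIs alone (0.66, edgeR adjusted p = 0.078). The CD45- level rose by stage alongside human EGFR in those sums (7.28, 706 and 1220 CPM). The part of tumor cells in that level was not tested. Socs3, the gene of the feedback inhibitor, had 27471 UMIs in 6806 cells. It stood at 822, 451 and 760.1 CPM in CD45+ and 164, 454 and 548 in CD45- cells, overlapping between the sorts. The log2 fold change of 1.27 ± 0.46 did not pass (edgeR adjusted p = 0.059). It passed without the medium tumor sample (1.72, edgeR adjusted p = 0.044), without the libraries of run 2 (1.21, edgeR adjusted p = 0.049), with every deposited cell (1.36, edgeR adjusted p = 0.047), with shared barcodes counted once (1.30, edgeR adjusted p = 0.0498) and in DESeq2 (1.33, adjusted p = 0.0059). It was smaller without the early tumor sample (0.68, edgeR adjusted p = 0.17) and with scaling to total UMIs alone (0.91, edgeR adjusted p = 0.15).

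The rest of the pathway was read from 8 lists with 72 genes, the 10 included, of which 63 could be tested. In all, 40 were higher in CD45+ cells and 9 were lower, beside a median log2 fold change of -0.04 over all genes. Over all genes tested 20.4% were called higher and 25.7% lower, the shares to set beside the list counts here and below. Of the 9 IL-6 family ligands, 5 were higher and 2 lower, with a median log2 fold change of 2.38 that stood at 3.64 without the early tumor sample, 3.43 to 4.00 without the libraries of single runs and 5.00 with only leukocyte-like CD45+ and other named CD45- cells. Besides Osm and Il6 the largest was Ebi3, a subunit of IL-27 and IL-35, at 4.50, and the lower ones were the neurotrophic cytokines Ctf1 (-3.33) and Cntf (-1.35). Of the 7 IL-6 family receptor chains tested, 3 were higher and 2 lower, with a median of 0.80 that stood at -0.03 without the early tumor sample. Il27ra, the IL-27 receptor chain, was higher by 3.75 and Il11ra1, which binds IL-11, by 1.07, and Cntfr, which binds CNTF, was the lowest at -3.24. Of the IL-10 family receptor chains, the 2 tested, Il10ra and its partner Il10rb (2.18), were higher. Il10 was the lone tested ligand of its family.

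The JAK and STAT lists leaned one way. Of the 4 JAK kinases, 3 were higher, Jak3 by 3.02, Tyk2 by 1.84 and Jak1 by 1.52 on the log2 scale, and Jak2 at 0.38 did not pass. All 7 STAT genes were higher, though 5 of 7 with scaling to total UMIs alone, without the replicate block and without the medium tumor sample and 6 of 7 without the early one, with a median of 1.36, from Stat4, which acts downstream of IL-12, at 4.03 and Stat6, which acts downstream of IL-4, at 2.80, to Stat5b at 1.24, Stat3 at 1.03 and Stat2 at 0.88. Of the 14 inhibitors of JAK-STAT signaling, 7 were higher and 2 lower, with a median of 0.65, and the higher calls went to 4 with scaling to total UMIs alone and to 3 without the replicate block. The phosphatase genes Ptpn6 (5.27), known from blood cells, and Ptpn1 (2.32) led, followed by Cish (1.74), an inhibitor induced by STAT5. Socs5 (-1.41) and the phosphatase gene Ptpn11 (-0.89) were lower.

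Of the 19 STAT3 target genes, 12 were higher in CD45+ cells and 3 lower, with a median of 2.44. The largest were Lcn2, a granule protein of neutrophils, at 9.69, Il1rn, the antagonist of the IL-1 receptor, at 6.49 and Il4ra, the IL-4 receptor chain, at 4.41. Lcn2 had 645, 8901 and 510 UMIs in the early, medium and late CD45+ sums, and those sums held 51, 253 and 27 neutrophil-like cells. What part those cells had in the Lcn2 difference was not tested. The lower genes were Serpina3n (-4.16), a protease inhibitor known from reactive astrocytes, Timp1 (-3.86), an inhibitor of metalloproteinases, and the kinase gene Pim3 (-1.02). Serpina3n had 516, 666 and 5272 UMIs in the early, medium and late CD45- sums. The astrocyte-like cluster held 94, 61 and 27 cells by stage over both sorts. Which cells carried Serpina3n was not tested. Each of these genes is also under the control of other factors, and the list does not measure STAT3 activity.

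**Figure D2:**
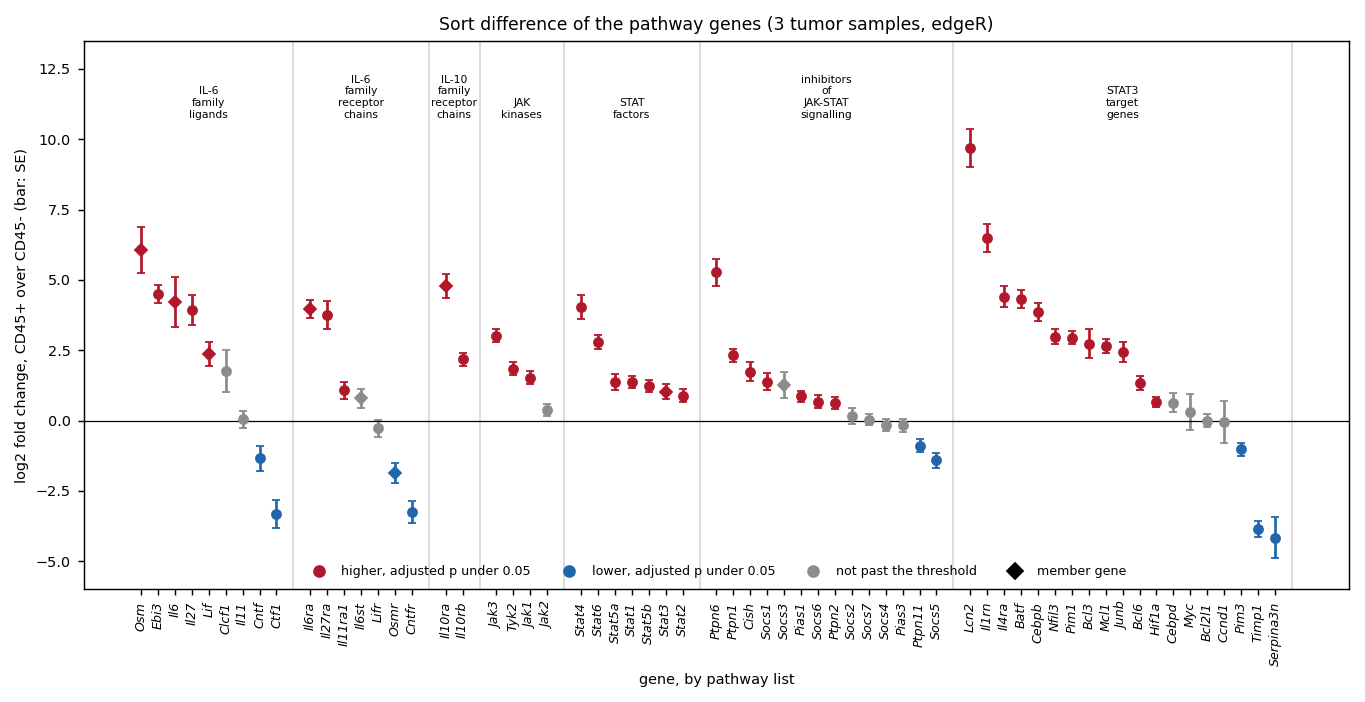
Log2 fold change of CD45+ over CD45- (y axis, n = 3 pairs) for the tested genes of 7 lists (x axis). Bars are the SE derived from the test statistic. Points are red where higher and blue where lower at an adjusted p under 0.05, gray where not past it, and diamonds for the 10 genes. Il10 is left out because its CD45- sums are at 0. All 7 STAT genes lie above 0 (as few as 5 of them passed under the alternatives), and Lcn2 (9.69) and Serpina3n (-4.16) mark the ends of the plot.

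Cells were then grouped by clustering and fixed marker genes into classes, of which 14 had at least 20 cells in every tumor sample, leukocyte-like classes being read in the CD45+ sort and the others in the CD45- sort. The 10 genes and the pathway lists were kept out of the clustering. The levels by class are descriptions, as mean ± SD over the 3 tumor samples, with no test between classes.

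**Figure D3:**
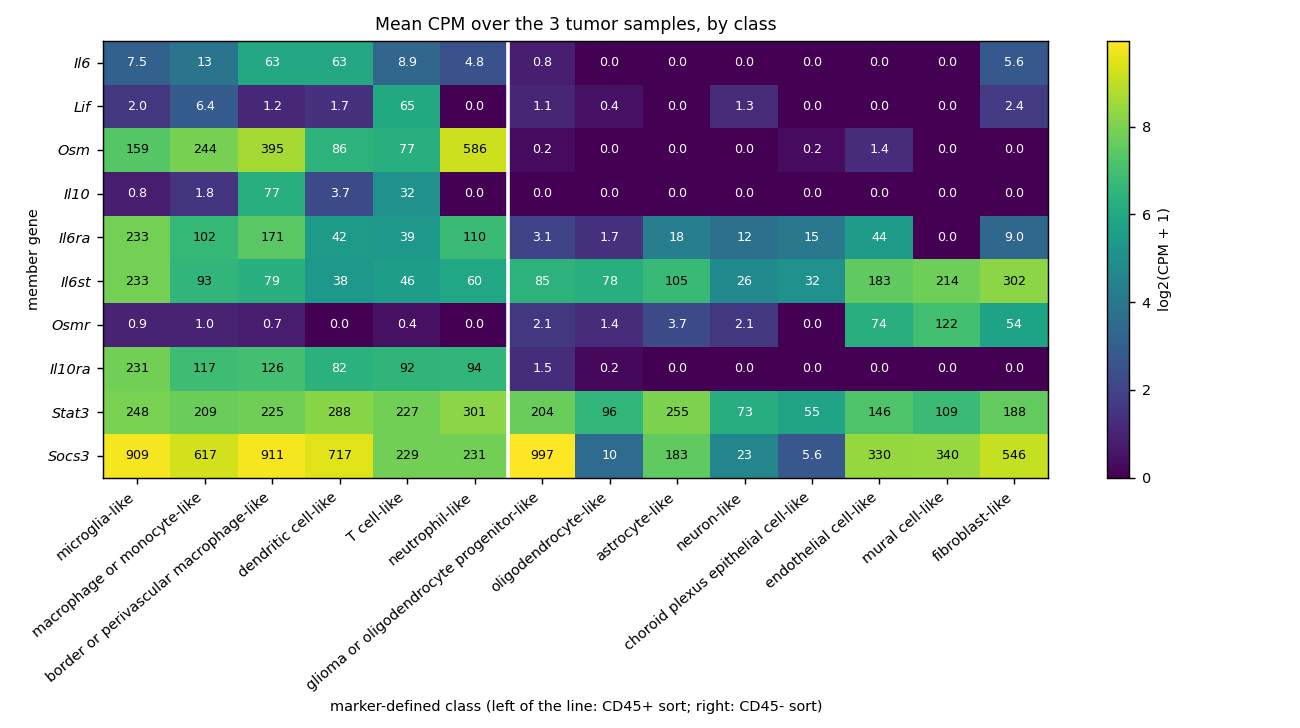
Mean CPM over the 3 tumor samples (number in each cell, color on a log2 scale after adding 1) of the 10 genes (rows) in 14 marker-defined classes (columns). Osm is at 77.2 or more and Il10ra at 81.7 or more in the 6 CD45+ classes, and both are at 1.47 or less in the 8 CD45- classes. Osmr is at 53.9 or more in the mural, endothelial and fibroblast-like classes and at 3.71 or less elsewhere, and Socs3 ranges from 5.57 to 997.

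Osm was carried by myeloid cells. Neutrophil-like cells had the highest mean, 586 ± 254 CPM, which rests in part on 14 late cells of run 2 with 56 of the 66 late UMIs, then border or perivascular macrophage-like cells at 395 ± 99.1, macrophage or monocyte-like cells at 244 ± 45.5 and microglia-like cells at 159 ± 49.5. The neutrophil and border macrophage ranges overlapped, and the order from border macrophage to macrophage to microglia-like cells held with no overlap over the 3 tumor samples. Dendritic cell-like cells (86.3 ± 60.1) and T cell-like cells (77.2 ± 38.5) came next, and the other 8 classes had means of at most 1.41. Of the 85 Osm UMIs in the CD45- sort, 52 were in microglia-like and 28 in macrophage or monocyte-like cells. By number, microglia-like cells held more of the CD45+ Osm UMIs than macrophage or monocyte-like cells in the early tumor sample (811 against 151) and fewer in the medium (288 against 718) and late ones (365 against 581). Across the 14 classes the genes most like Osm were Hk3 (Pearson r of log2 levels 0.994), Ccl6 (0.994) and Myo1f (0.988), a description over classes that share libraries.

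Il6 was scattered over few cells of several classes. Dendritic cell-like cells averaged 63.1 ± 60.6 and border or perivascular macrophage-like cells 62.8 ± 48.5 CPM, with ranges of 10.0 to 129 and 16.1 to 113. When a class was given to each cell from its own markers, they averaged 24.6 and 53.7, so the order of these classes depends on how cells were named. Macrophage or monocyte-like cells followed at 13.4 ± 4.89, T cell-like cells at 8.90 ± 11.7 and microglia-like cells at 7.52 ± 3.31, all overlapping with their neighbors in this order. Named from their own markers, these classes averaged 21.2, 4.85 and 10.6, so this order depends on the naming too. By number, microglia-like cells held 86 of the 142 Il6 UMIs of the early CD45+ sum, but 12 of 97 in the medium and 8 of 116 in the late one, where macrophage or monocyte-like cells held 32 and 37. Glioma or oligodendrocyte progenitor-like cells had 6 Il6 UMIs in 1213 cells, and the oligodendrocyte, astrocyte, endothelial, mural, choroid plexus and neuron-like classes had none. For the small mural and astrocyte-like classes the upper 95% Poisson limits, 14.5 and 9.65 CPM, lay above the microglia-like mean, so these zeros do not set them apart. The dendritic cell-like Il6 came mostly from a cluster led by Ccl17 and Cd209a (26 UMIs in 10 of 90 cells, 104 CPM). In the late tumor sample the dendritic cell-like UMIs, 15 in all, came from the libraries of run 2. The genes most like Il6 over the classes were H2-Ea-ps (r = 0.970), H2-DMb1 (0.959) and Ciita (0.945), genes of the major histocompatibility complex class II system.

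Il10 was found mainly in border macrophage-like and T cell-like cells. Border or perivascular macrophage-like cells had 77.2 ± 52.3 CPM, and their 86 UMIs, in 27 of 422 cells, were 57.0% of the CD45+ Il10 UMIs from 3.77% of the CD45+ cells. This share is summed over tumor samples, and in the late one they held 3 of the 28 Il10 UMIs and T cell-like cells 17. T cell-like cells followed at 32.0 ± 26.8 (41 UMIs in 13 of 790 cells), with a range that overlapped that of the border macrophages but lay above all other classes. Dendritic cell-like (3.73 ± 6.45), macrophage or monocyte-like (1.80 ± 1.60) and microglia-like cells (0.77 ± 0.67, 4 UMIs in 5522 cells) were near 0, and neutrophil-like cells and the 8 CD45- classes had no UMI.

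Lif had its highest mean in T cell-like cells, 64.8 ± 94.3 CPM, a spread larger than the mean, from 4.89 in the early and 15.9 in the medium to 173 in the late tumor sample. Of the 64 Lif UMIs in T cell-like cells, 30 were in 10 cells of a cluster of 42 cells led by Il13, Areg, Ccl1, Il4, Gata3 and Il1rl1, 36 of them from the late tumor sample. These leading genes are shared by type 2 helper T cells and type 2 innate lymphoid cells, and the cluster also had Trac among its leading genes. It stood at 285 CPM for Lif and 162 for Il10, the latter from 17 UMIs in 2 cells. Macrophage or monocyte-like cells had 6.41 ± 5.39 and microglia-like cells 2.05 ± 1.09, and no other class had a mean above 2.44. With each cell named from its own markers, T cell-like cells averaged 70.0, mural cell-like cells 3.64 and macrophage or monocyte-like cells 3.00. Of the 35 CD45- Lif UMIs, 21 were in cells of unnamed clusters. Of the 126 CD45+ ones, 7 were in 2 of the 24 fibroblast-like cells of that sort, which the class values leave out.

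Among the CD45+ classes, Il6ra and Il10ra were highest in microglia-like cells. Il6ra stood there at 233 ± 38.8 CPM, with a range that overlapped that of border or perivascular macrophage-like cells (171 ± 49.0). Neutrophil-like cells stood at 109.9 ± 59.9 and macrophage or monocyte-like cells at 102 ± 33.5, all 3 tumor samples of the latter above those of the next class. Endothelial cell-like cells, at 43.8 ± 24.6, were the highest CD45- class, glioma or oligodendrocyte progenitor-like cells had 3.06 ± 3.06, and mural cell-like cells had no Il6ra UMI. Of the 314 CD45- Il6ra UMIs, 170 were in microglia-like cells. Il10ra was highest in microglia-like cells at 231 ± 42.8, above every value of the next class, and fell to between 126 and 81.7 in the other 5 CD45+ classes, T cell-like cells (91.7 ± 65.0) among them, which overlapped. The highest CD45- class had 1.47 CPM, and 195 of the 207 CD45- UMIs were in microglia-like or macrophage-like cells. The genes most like Il10ra were Vav1 (r = 0.995), Tnfaip8l2 (0.987) and Myo1f (0.986).

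Osmr marked the vessel wall and fibroblasts. Mural cell-like cells, the pericytes and smooth muscle cells of vessels, had 122 ± 24.5 CPM, above every value of the endothelial cell-like class (74.2 ± 11.1). Fibroblast-like cells stood at 53.9 ± 41.5, from 6.12 in the early tumor sample to 74.6 and 81.0 in the medium and late ones, on 2, 22 and 19 UMIs, and averaged 22.5 when each cell was named from its own markers. Every other class was at or under 3.71, glioma or oligodendrocyte progenitor-like cells at 2.08 ± 2.01 among them. These values rest on 31, 44 and 43 UMIs in 125, 347 and 219 cells. The level of Osmr over the classes ran opposite to that of Osm (r = -0.54 over 14 classes), and the genes most like it were Wfdc1 (0.954), Foxc1 (0.948) and Col4a1 (0.946).

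Il6st was not bound to a sort or lineage. Fibroblast-like cells were highest at 302 ± 73.7 CPM, then microglia-like cells at 233 ± 57.4, mural cell-like cells at 214 ± 76.9 and endothelial cell-like cells at 183 ± 26.4, with overlap between neighbors in this order. The endothelial cell-like values lay above those of astrocyte-like cells (105 ± 38.1), and from there the macrophage (92.5 ± 37.6), glioma or oligodendrocyte progenitor (85.2 ± 21.4), border macrophage (78.5 ± 11.8) and oligodendrocyte-like (77.6 ± 11.9) classes ran together down to neuron-like cells at 25.8 ± 10.3. Il6st did not run along with Il6ra (r = -0.08 over 14 classes) and was nearer to Osmr (r = 0.72). The genes most like it were Bag3 (0.917), Chst14 (0.894) and Xbp1 (0.888).

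Stat3 was found in every class. Neutrophil-like (301 ± 111), dendritic cell-like (288 ± 34.5), microglia-like (248 ± 17.6), T cell-like (227 ± 98.4), border macrophage-like (225 ± 12.8) and macrophage or monocyte-like cells (209 ± 35.3) were the CD45+ classes in order, and neighbors overlapped except for dendritic cell-like and microglia-like cells, whose values came within 1 CPM (lowest 263 and highest 262). Among the CD45- classes, astrocyte-like cells had 255 ± 43.2 and glioma or oligodendrocyte progenitor-like cells 204 ± 35.0 CPM. Oligodendrocyte-like (95.5 ± 17.7), neuron-like (72.6 ± 15.9) and choroid plexus epithelial cell-like cells (55.2 ± 31.7) were lowest. The genes most like Stat3 were Zfp36l2 (r = 0.881), Cxcl10 (0.873) and Ripk1 (0.869).

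Socs3 differed most between classes on the CD45- side. Glioma or oligodendrocyte progenitor-like cells had 997 ± 315 CPM, beside border or perivascular macrophage-like cells at 911 ± 203 and microglia-like cells at 909 ± 174, and the 3 ranges overlapped. An unnamed cluster outside these classes (591 cells, of which 566 were late, led by Itga8 and Thbs2) also held human EGFR, at 1360 CPM, and had Socs3 at 429. Dendritic cell-like (717 ± 372), macrophage or monocyte-like (617 ± 195) and fibroblast-like cells (546 ± 208) followed. Oligodendrocyte-like cells, sorted and sequenced in the same libraries as the glioma-like cells, had 10.2 ± 2.40 and choroid plexus epithelial cell-like cells 5.57 ± 7.58. When a class was given to each cell from its own markers, oligodendrocyte-like cells had 55.3 CPM, choroid plexus epithelial cell-like cells 107 and dendritic cell-like cells 453. Which class was lowest therefore depends on how cells were named. Glioma or oligodendrocyte progenitor-like cells held 310 of 1328 CD45- Socs3 UMIs in the early tumor sample, 2463 of 2977 in the medium and 3811 of 5802 in the late one. Socs3 and Stat3 levels went together over the classes (r = 0.81), and the genes most like Socs3 were Fosb (0.942), Ier2 (0.930) and Junb (0.926), immediate early genes. Such genes are also known to rise during tissue dissociation, and the part of that step in the Socs3 levels was not tested.

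Within classes, Socs3 separated clusters. Among the 8 microglia-like clusters with at least 100 cells it ran from 530 to 1224 CPM. The highest was led by Tnf, Gpr84, Dusp2 and Il1a, inflammatory genes (2142 cells), and the lowest by Tnfrsf17, Slc2a5, P2ry12 and P2ry13, among them purinergic receptor genes of resting microglia (1206 cells). Fosb, Ier2 and Junb moved with it, summing to 5601 CPM in the first cluster and 2678 in the second. Stat3 stood at 292 and 234. The summed genes were picked in these same cells as most like Socs3 over the classes, so this is a description. Junb is also on the STAT3 target list. Among glioma or oligodendrocyte progenitor-like cells, the cluster led by Bcas1os2 and Gpr17 had 1203 (human EGFR at 2672 CPM), the cluster led by AI506816 and Apobec3, found in the medium tumor sample only, had 1180 (human EGFR at 2045), and the cluster led by Susd5 and C1ql2, with Pdgfra, had 838 (human EGFR at 108). The class thus holds cells with much and with little of the tumor transcript, and Fosb, Ier2 and Junb summed to 1751, 1813 and 2533 in these clusters. The dendritic cell-like cluster led by Ccl17 and Cd209a stood at 1244.

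**Figure D4:**
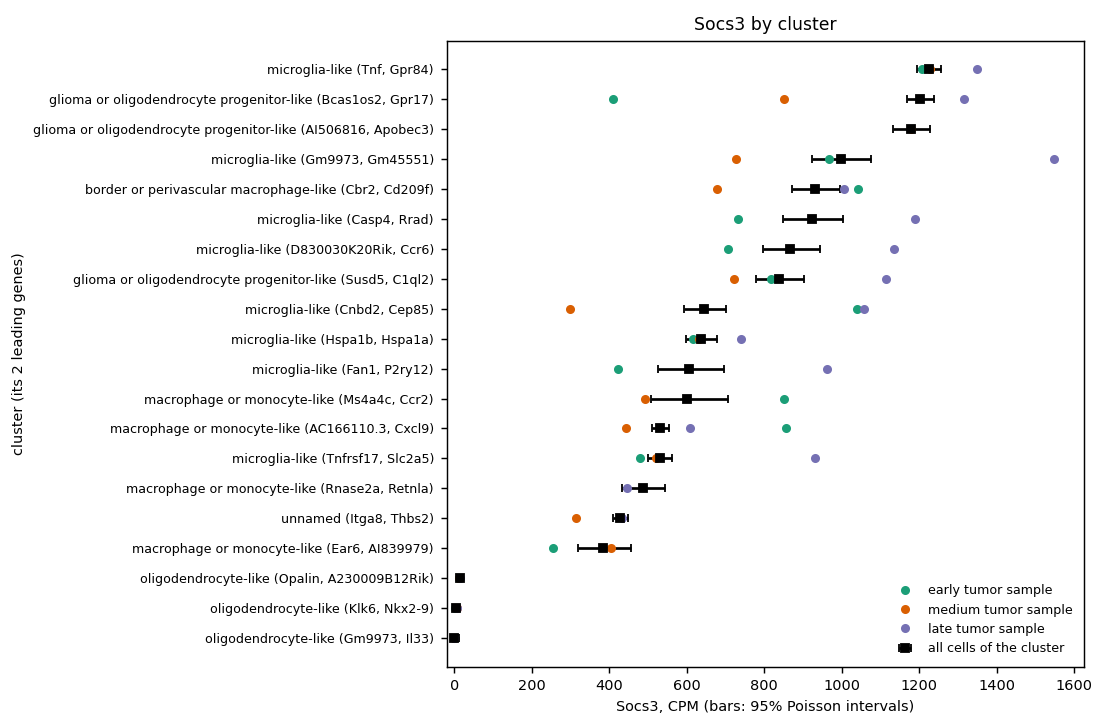
Socs3 CPM (x axis) in clusters of at least 100 cells of the microglia, macrophage, border macrophage, glioma or oligodendrocyte progenitor and oligodendrocyte-like classes and 1 unnamed cluster (y axis, named by its leading genes), black squares for all cells with 95% Poisson intervals and colored points for each tumor sample with a value. The microglia-like cluster led by Tnf and Gpr84 is at the top at 1224, and the 3 oligodendrocyte-like clusters lie at the bottom near 0.

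By stage, the CD45+ sums changed in makeup, which bears on every level in them. Microglia-like cells were 3791 of 5091 early, 829 of 3983 medium and 902 of 2111 late CD45+ cells, and macrophage or monocyte-like cells were 282, 1519 and 647. The genes highest in microglia-like cells, Il6ra, Il6st (among leukocytes) and Il10ra, were highest in the early and lowest in the medium CD45+ sum. Stages were therefore compared within classes, with 95% Poisson intervals that cover counting error only and the value of each of the 3 sequencing runs that had at least 20 cells of the class.

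Within microglia-like cells the receptor chains were again lowest in the medium tumor sample. Il6ra stood at 264 (252 to 275), 189 (169 to 211) and 245 (223 to 269) CPM by stage, Il6st at 277, 168 and 254, and Il10ra at 257, 181 and 254. For Il6ra and Il6st the medium value was the lowest in every run with values at all 3 stages. For Il10ra the run 1 value in the medium tumor sample was 233, above the 227 of the early one in that run. In run 3 the late value was above the early one for all 3 chains, at 264 against 256 for Il6ra, 260.0 against 251 for Il6st and 276 against 263 for Il10ra. Stat3 hardly moved, at 262, 254 and 229, with overlapping intervals between neighbors. Osm in microglia-like cells stood at 103 (96.5 to 111), 174 (154 to 195) and 199 (179 to 221), with the medium value of run 3 alone at 113. Socs3 was at 897 (876 to 918), 741 (700.4 to 784) and 1088 (1041 to 1137), the medium value lowest in every run with values at all 3 stages. The clusters behind this class differed by stage. Over both sorts, the cluster led by Casp4 and Rrad held 182 early, 10 medium and 122 late cells, whereas the cluster led by Cnbd2 and Cep85 held 148, 188 and 43. In the largest microglia-like cluster, led by Tnf and Gpr84, Socs3 stood at 1207, 1228 and 1348 CPM by stage, and in the cluster led by Tnfrsf17 and Slc2a5 at 478, 521 and 930, so the medium value was not the lowest in either. Il6st was lowest at the medium stage in both (261, 184 and 223, then 247, 195 and 255), Il6ra in the second (267, 228 and 250) but not in the first (253, 224 and 204), and Il10ra in the first (309, 228 and 291) but not in the second (185, 199 and 240).

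In macrophage or monocyte-like cells Socs3 was highest in the early tumor sample, at 835 (768 to 908), against 459 (437 to 483) and 556 (524 to 590.1). The clusters of this class differed by stage too: the cluster led by Rnase2a and Retnla held 209 late cells of 215, and the one led by Ly6i and Cfb held 72 medium cells of 85. In its largest cluster, led by AC166110.3 and Cxcl9, Socs3 stood at 856, 444 and 609 CPM. Osm in these cells was highest in the late one, at 225 (191 to 264), 211 (196 to 227) and 296 (272 to 321), and by run the late values were 372, 343 and 234, the last under the early 249 of the same run. In glioma or oligodendrocyte progenitor-like cells Socs3 stood at 682 (608 to 762), 997 (958 to 1037) and 1311 (1270.1 to 1354), in the same order in each of the 3 runs. The unnamed, mostly late cluster with human EGFR and Socs3 at 429 is not part of these values. Human EGFR in this class was at 0 UMIs in the 173 early cells, 1761 CPM in the medium cells and 2585 in the late cells, so the early cells of the class were progenitor-like cells without a detected tumor transcript, and stage and tumor cell share within it cannot be told apart. Stat3 in the class stood at 165, 214 and 233 and Il6st at 103, 90.7 and 61.6. These Il6st values also leave out the unnamed cluster, which made up 543 of the 588 unnamed CD45- cells. Those 588 cells held 783 Il6st UMIs, against 450 in the 1213 CD45- cells of the class. Cells of that cluster had a median of 5934 UMIs over all genes, against 2683 to 5163 in the clusters of the class.

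**Figure D5:**
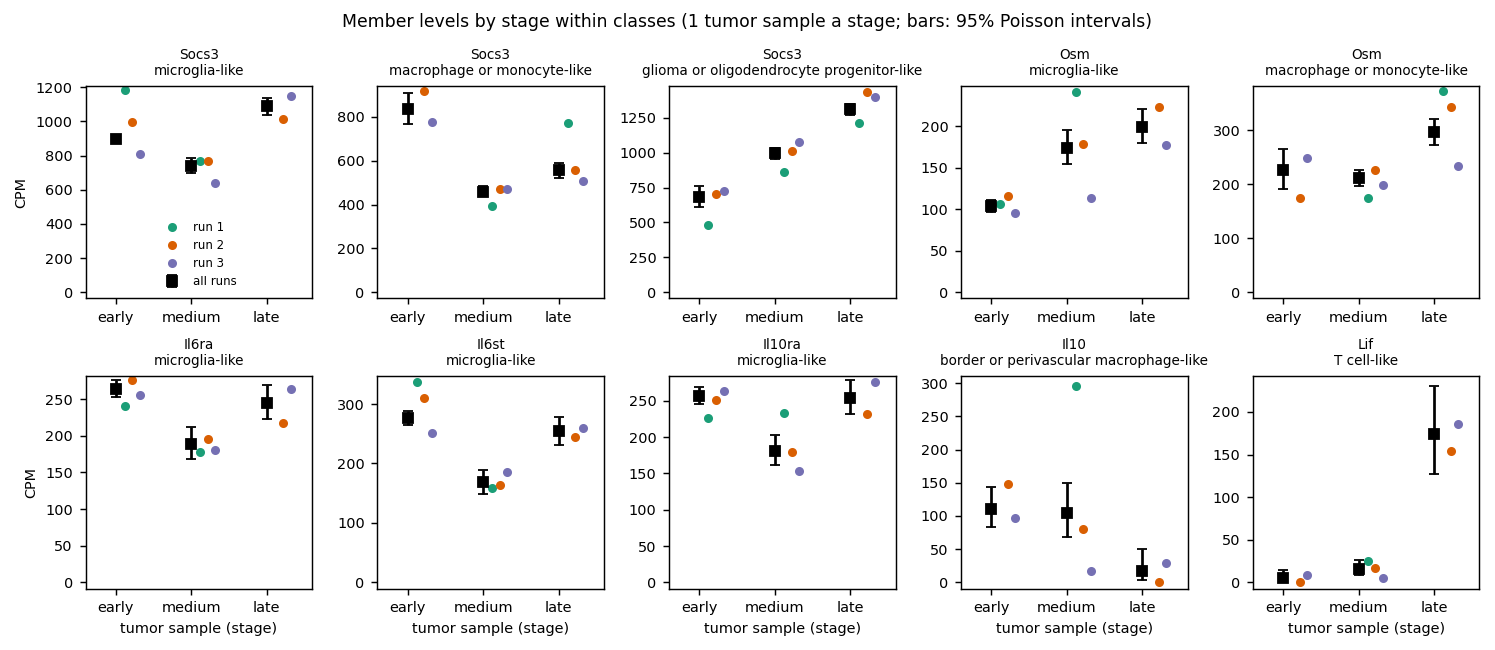
CPM (y axis, from 0) of 10 pairs of gene and class in the early, medium and late tumor samples (x axis, 1 tumor sample a stage), black squares for all runs with 95% Poisson intervals and colored points for each sequencing run with at least 20 cells. Socs3 in glioma or oligodendrocyte progenitor-like cells runs from 682 to 1311 in the same order in the 3 runs, while Il10 in border macrophage-like cells differs between runs of the medium tumor sample from 16.6 to 296.

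The rare ligands also differed between stages, on few UMIs. In border or perivascular macrophage-like cells Il6 stood at 16.1 (7.0 to 31.8), 59.3 (33.9 to 96.3) and 113 (69.0 to 174) CPM by stage, on 8, 16 and 20 UMIs. Il10 in the same cells went the other way, at 110.8 (83.5 to 144), 104 (68.9 to 149.9) and 16.9 (3.49 to 49.5), on 55, 28 and 3 UMIs. In the medium tumor sample 10 of the 16 Il6 and 14 of the 28 Il10 UMIs came from the 23 cells of run 1. In T cell-like cells Lif had 3, 14 and 47 UMIs, or 4.89, 15.9 and 173 CPM, and its late value was high in both runs with enough cells (155 and 186). Il10 in those cells had 12, 12 and 17 UMIs, 16 of the late 17 from run 3. The late neutrophil-like Osm level, 879 (680 to 1118), rests on 27 cells, with 56 of its 66 UMIs in the 14 cells of run 2 and 10 in the 12 cells of run 3, and the early and medium values were 428 and 450.0.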

How the data were processed

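The data are single-cell UMI counts of sorted mouse glioma cells from 3 sequencing runs, each holding libraries of every stage and sort. The authors deposited 1 table of raw counts per gene and cell (counts as deposited, mapped to the GRCm38 transcriptome with transgenes by RapMap within bcbio-nextgen, called from empty droplets) with an annotation of libraries. The study also describes removal of ambient RNA and doublets, and whether this preceded the table is not given in the sources used here. Cells with at least 500 UMIs, 500 genes and at most 20% mitochondrial UMIs were kept. Scrublet marked 113 of 17786 tested cells (0.635%) as doublets, which were removed, and removal of the 5% of cells with the highest scores was tried as an alternative.

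Variable genes (2000, without the 10 genes and the pathway lists) were scaled, reduced to 40 components and clustered in scanpy 1.11.5 (Leiden, resolution 1), with clusters that led with markers of several classes divided once more. A cluster was named when at least 3 fixed markers were 2-fold higher than in other cells and in at least 10% of its cells and no other class had more markers among its 10 leading genes. Of 50 clusters, 5 stayed unnamed (1247 cells). The names are rebuilt from markers and may differ from the study's.

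The counts of all cells of a tumor sample and sort were added up, and the sorts were compared with edgeR 4.0.16 (TMM scaling, filterByExpr, robust quasi-likelihood test, two-sided, tumor sample as block). Sums of the same tumor sample deviated together (correlations 0.384, 0.280 and 0.302 for the early, medium and late pairs, others -0.27 to 0.02), and the pairs come from the sorting of the same tumor. The p-values rest on the spread of the sort difference over 3 tumor samples (2 residual degrees of freedom), moderated with the spread of other genes. With 1 tumor sample a stage, that spread includes differences between stages. DESeq2 1.42.0, other scalings and filters, leaving out tumor samples or runs and counting shared barcodes once were alternatives. On simulated counts for this comparison (18130 genes), 27 of 100 genes changed 2-fold and 98 of 100 changed 4-fold were recovered, with 5 false calls. The changed genes were few and drawn from the more abundant ones, and all genes shared a dispersion of 0.0678. In the data 46.1% of genes were called, so these rates do not describe this comparison or rare genes such as Lif, Il10 and Osmr. Intervals and floors cover counting error only. The genes, lists and tests were chosen with earlier results of these data known. All 10 genes are named, and of each list at most 3 genes with the largest and 3 with the smallest fold change among those called. The most similar genes are those with the highest Pearson correlation of log2(CPM + 1), with CPM the UMIs per 1000000 UMIs, across 14 classes, for genes with at least 200 UMIs, which Lif and Il10 did not reach. Those of Il6ra and 1 further detail of the mouse model are not reported here. Positions are GRCm38 and promoter sequences are from RefSeq.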

Additional observations from a re-analysis of the deposited data

Results flagged for a closer look

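The sort difference of 2 genes pointed one way in the medium tumor sample and the other way in the early and late ones. Il6st was lower in medium CD45+ than CD45- cells, at 0.747 times, against 2.68 times in the early and 1.23 times in the late tumor sample. Socs3 was near equal in the medium tumor sample, at 0.994 times, with overlapping 95% Poisson intervals (438 to 464 and 438 to 470.4 CPM), against 5.01 and 1.39 times in the early and late ones. Each stage has 1 tumor sample, so the difference between stages was not tested. Microglia-like cells were 829 of 3983 medium CD45+ cells, against 3791 of 5091 early and 902 of 2111 late ones. They held 279 of 727 Il6st UMIs and 1230 of 4387 Socs3 UMIs of the medium CD45+ sum, against 2170 of 2474 and 7027 of 8886 in the early one, and their part in the medium ratios was not tested.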

How the results depend on the processing

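The counts of genes called higher (3759) and lower (4744) stayed within 1.5 times in every alternative, at 3012 to 3124 and 3931 to 4086 without 1 tumor sample. Without the replicate block, that is without pairing the sorts of a tumor sample, they were 3470 and 4398, and the 10 genes kept their calls. Scaling to total UMIs alone moved the median log2 fold change of all genes from -0.04 to -0.40 and the share of calls that were higher from 44.2% to 28.3%. Of the fold changes of single genes under alternatives, 127 kept their side of the threshold, 7 passed it newly and 5 lost it, and none changed direction. Those of Il6st, Stat3, Socs3, Il6 and Osm are given with the results. The log2 fold change of Il10ra was 5.38 without the early tumor sample. With only leukocyte-like CD45+ and other named CD45- cells, the log2 fold change of Lif was 3.32. It and, as given, those of Il6, Osm, Il6ra and Il10ra were over 1.5 times larger as folds. This setting took the leukocyte-like and the unnamed cells out of the CD45- sums. For Lif, 21 of the 35 CD45- UMIs were in unnamed cells and 1 was in a microglia-like cell. The IL-6 family receptor chains called higher ranged from 2 to 4. Cntf was near the threshold (adjusted p = 0.046), and the lower calls among IL-6 family ligands fell from 2 to 1 under most alternatives. The drop in inhibitors called higher is given with the result. By class, 8 to 10 of the 10 genes kept their highest class. By stage in the CD45+ sort, the genes that kept their highest stage fell to 6 of 10 in run 3 alone, and the cause was not tested. Counting shared barcodes once was added after the data were seen. Genes under about 200 UMIs (Lif, Il10) and classes of few cells are limited by depth.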

Other observations

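Some clusters could not be named by the fixed markers and entered no class. A cluster of 128 cells led by Elane, Prtn3, Ctsg, Mpo, Mcpt1, Mcpt2 and Cpa3, genes of granulocyte precursors and mast cells, had 63 Il6 UMIs in 11 cells. Over all its cells this was 112 CPM (95% Poisson interval 86.2 to 144). Dendritic cell-like cells, also summed over the tumor samples, had 28 UMIs with an interval of 26.8 to 58.3 CPM. Their 63.1 given above is a mean of tumor samples. A cluster of 591 cells led by Itga8, Thbs2 and Tnc, of which 566 were from the late tumor sample, had human EGFR at 1360 CPM, Socs3 at 429 and Osmr at 5.65.

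Classes with under 20 cells in a tumor sample were not averaged. NK cell-like cells (59 in the CD45+ sort) had Stat3 at 339 (239.9 to 465) and Socs3 at 321 (225 to 445) CPM, and B cell-like cells (219, of which 192 were medium) had 84.5 and 80.3. Ependymal or ciliated cell-like cells (123 in the CD45- sort, 92 of them early) had Il6st at 152 (117 to 195) and Socs3 at 145 (110.3 to 187). An endothelial cell-like cluster of 26 cells led by Esm1 and Emcn stood at 1518 for Socs3 (79 UMIs), against 330.0 for the class mean.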
